A study of Homo sapiens with 2 samples.

Results

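The genes described here encode proteins of the extracellular matrix: 9 collagen chains, 7 laminin chains, 6 ADAMTS proteases and 8 other matrix proteins named one by one (THBS1, THBS2, FN1, SPARC, FBN1, LTBP1, LOX and LOXL2). They were chosen by gene symbol alone, from 3 symbol patterns and 13 single names. The rule uses no measured value, but it was proposed with earlier results of these data known. The rule found 30 genes of the 7712 genes in the deposited table, with 1358 of its 233546 clusters. FBN2, LTBP2, NID1, HSPG2 and VCAN, the other 5 single names, had no cluster in the table analysed here, and neither had COL1A1, COL1A2 or COL3A1, the chains of the most abundant fibrillar collagens.

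The study mapped where the RNA-binding protein RBM47 touches RNA in breast cancer cells. The cells were MDA231-BrM2a, brain metastatic descendants of the MDA-MB-231 line that were not grown from a single clone, which carried Flag-tagged wild-type RBM47 behind a doxycycline-inducible promoter. There was 1 group of 2 replicates, both given 1 ng/ml doxycycline for 3 days and then crosslinked with ultraviolet light. RNA bound to the tagged protein was purified through Flag and sequenced (HITS-CLIP), and overlapping sequence tags were joined into clusters. The labels do not say whether the replicates were separate cultures, so the spread between them may be technical. The RBM47 measured was the induced transgene, no control library was analysed here, and the background of the purification was therefore not measured.

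The matrix is assembled outside the cell from secreted chains. Collagen chains wind into triple helices that build fibrils, basement membrane sheets or hexagonal networks, while laminins are trimers of an alpha, a beta and a gamma chain that form the other polymer of basement membranes. Thrombospondins, fibronectin and SPARC link cells to this scaffold or modulate their adhesion, fibrillins form microfibrils, lysyl oxidases crosslink collagen and elastin, and ADAMTS enzymes cut matrix proteins. Breast cancer cells of mesenchymal character, such as MDA-MB-231, make many of these proteins themselves. A tag count reflects both how much of a transcript a cell contains and how often RBM47 contacted it, and these cannot be told apart here. In a bulk sample, fewer cells with a transcript and less of it per cell cannot be told apart either.

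The study found no enriched motif in its strongest peaks, but uridine stretches were enriched around sites where crosslinking left deletions in the reads. The longest such stretch in the 3′ untranslated region (3′UTR) was therefore read from the reference for THBS1, ADAMTS12 and LOX. These are 3 of the 4 matrix genes with the most tags. Each window is 30 nucleotides of the transcript strand, 5′ to 3′, from GENCODE release 44 on GRCh37, with the longest run of T (U in RNA) in capitals. The windows lie at chr15:39889478-39889507 (+) for THBS1, chr5:33526853-33526882 (−) for ADAMTS12 and chr5:121400131-121400160 (−) for LOX, all in the 3′UTR of the gene.
THBS1: tttgTTTTTTTTTTTTTTTTTTTTTgcttt
ADAMTS12: aatacctttcTTTTTTTTTTcttgcctccc
LOX: ttttgacgaTTTTTTTTTTTcaattaggaa
These windows are a description of the reference and not mapped contacts, because the table gives cluster edges on hg18 and no position of tags within a cluster. ADAMTS12 had no cluster labelled 3′UTR. The run of THBS1 was 21 T long, and 3.43% of the 19281 genes with an annotated 3′UTR had a run of that length or more. The run was 11 in LOX, which 18.1% of genes matched, and 10 in ADAMTS12, which 22.0% matched. A run of at least 8 T occurred in the longest 3′UTR of 14 of the 30 matrix genes (46.7%), against 34.4% of all genes and 66.0% of the 2815 genes with over 100 tags and an annotated 3′UTR. Among the 13 matrix genes with over 100 tags it occurred in 6 (46.2%). Their 3′UTRs had a median T content of 31.9%, beside 33.6% in all genes with over 100 tags and 29.2% in all genes. The median length of the longest 3′UTR was 2475 nucleotides in those 13, 2619 in the genes with over 100 tags and 1222 in all genes. The longest 3′UTR had 4097 nucleotides in THBS1, 3653 in ADAMTS12 and 3548 in LOX. The shares of genes with a run as long were not adjusted for 3′UTR length.

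The deposited clusters held 999047 tags in replicate 1 and 3489697 in replicate 2, a ratio of 3.49. These are sums over listed clusters and not library depths, because each listed cluster had at least 5 tags in total and at least 1 in each replicate. Counts were therefore also expressed per 1000 tags of a replicate. Unless stated otherwise, gene totals are the tags in clusters of at least 10 tags, and more than 100 such tags is used as a level for comparison, after a limit the study set for its strongest targets. Transcripts that mark these cells were present, with 8404 tags in CD44, 3327 in VIM, 3232 in AXL and 2335 in CAV1. ESR1, PGR and CDH1, which MDA-MB-231 cells lack or express at low levels, had no cluster, and neither had the keratin gene KRT8, while EPCAM had 11 tags. A missing cluster does not show that a transcript was absent.

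Matrix transcripts ranged from among the most heavily tagged of the table to barely above its limit. Of the 1358 matrix clusters, 688 (50.7%) had at least 10 tags, against 41.6% of the clusters in genes and 40.7% of all clusters. This excess came from COL8A1, with 385 of its 611 clusters, and was not shared by ADAMTS12, with 172 of 486. Clusters of at least 10 tags were present in 24 of the 30 genes (80%, against 72.6% of all genes), and 13 genes had over 100 tags (43.3%, against 39.9% of all genes). Counted in a single replicate, 10 genes passed both limits without replicate 1 and 7 without replicate 2. The median over the 24 genes was 120 tags, close to the 127 over all genes with such a cluster. The totals were concentrated in few genes. COL8A1 held 45.1% of the 33647 tags of the matrix genes, COL8A1 and THBS1 together 68.1%, and these with ADAMTS12 and LOX 85.3%. The matrix genes held 1.17% of all gene tags in replicate 1 and 1.16% in replicate 2 (1.16% ± 0.00811, SD, n = 2). Without COL8A1 the pooled share was 0.637%.

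**Figure D1:**
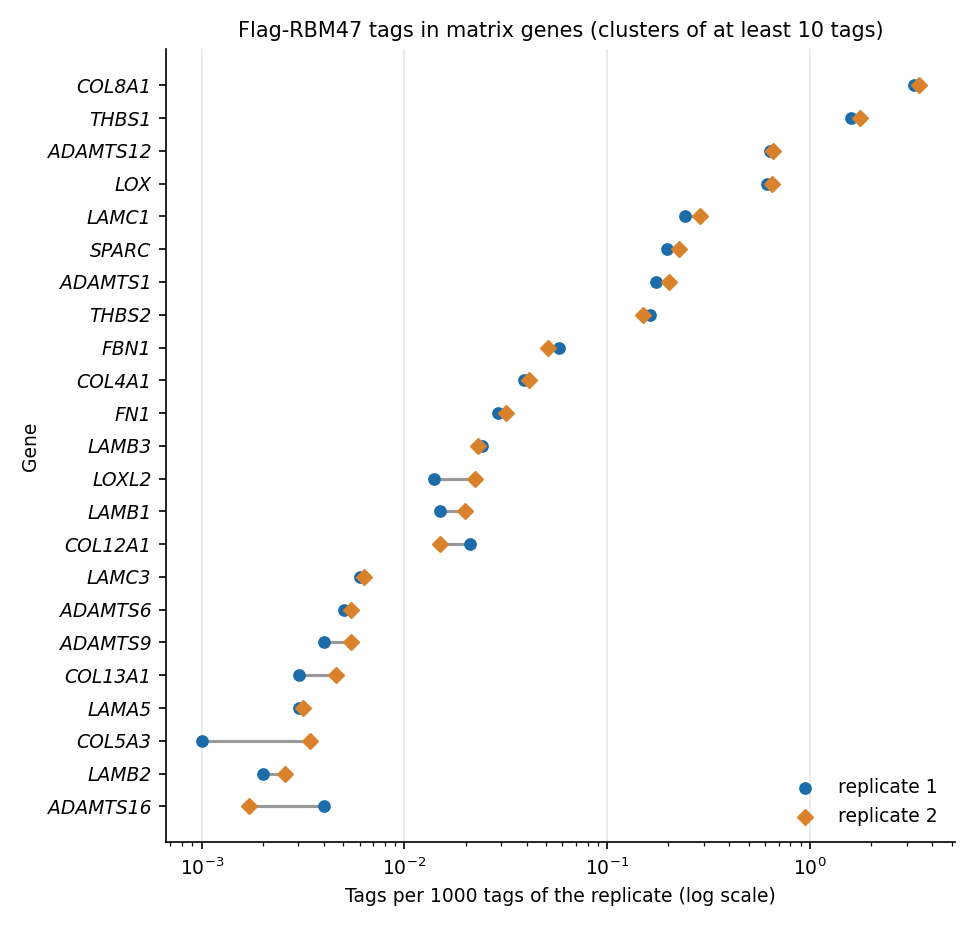
Tags per 1000 tags of the replicate (log axis) for 23 of the 24 matrix genes with a cluster of at least 10 tags, with a circle for replicate 1 and a diamond for replicate 2. Both replicates placed COL8A1 first at 3.28 and 3.44, followed by THBS1 at 1.60 and 1.76, and the markers separate widely only for genes with few tags.

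COL8A1 (gene ID 1295, chromosome 3) encodes the alpha 1 chain of type VIII collagen, a short-chain collagen that forms hexagonal networks in the subendothelial matrix and in the cornea. It had 3272 tags in replicate 1 and 12022 in replicate 2, or 3.28 and 3.44 per 1000 tags (3.36 ± 0.120, SD, n = 2). With 15173 tags in 385 clusters it was rank 10 of all genes. With replicate 2 left out, so that each cluster needed 10 tags in replicate 1 alone, it had 1.91 per 1000 and rank 17. The other network and basement membrane collagens were far lower. COL4A1, a chain of the type IV collagen network, had 39 tags in replicate 1 and 144 in replicate 2, all in 7 3′UTR clusters. COL4A2 and COL4A5, further type IV chains, had no cluster of at least 10 tags, with 10 and 48 tags over all their clusters.

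None of the remaining collagens had over 100 tags in clusters of at least 10. COL12A1, which associates with fibril surfaces, had 73 such tags in 5 3′UTR clusters and 181 over all its clusters. COL13A1, a transmembrane collagen, had 19 in a single 3′UTR cluster and 116 over all. Both sums over all clusters were above the median of 96 tags over all genes. Of the fibrillar chains, COL5A3 had 13 tags in 1 intron cluster and COL5A2 had 8 tags in all. COL6A3, a chain of beaded microfilaments, had 12 tags in all and no cluster of at least 10.

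Among the adhesive and matricellular genes, all 4 had over 100 tags. THBS1 (gene ID 7057, chromosome 15), which encodes thrombospondin-1, an activator of latent TGF-beta and an inhibitor of angiogenesis, had 1594 tags in replicate 1 and 6156 in replicate 2. This was 1.60 and 1.76 per 1000 tags (1.68 ± 0.119, SD, n = 2) and rank 31 of all genes. It stood between COL8A1 and all other matrix genes in both replicates. SPARC, a collagen-binding glycoprotein that counters cell adhesion, had 197 and 787 tags, at rank 668. THBS2, the paralogue of THBS1, had 163 and 525 tags. FN1, fibronectin, the main ligand of several integrins, had 29 and 110 tags. THBS2 was the only one of the 4 with a higher value per 1000 tags in replicate 1 (0.163) than in replicate 2 (0.150).

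The crosslinking enzymes and the proteases differed widely within each class. LOX (gene ID 4015, chromosome 5), the secreted lysyl oxidase, had 611 tags in replicate 1 and 2263 in replicate 2, or 0.612 and 0.648 per 1000 (0.630 ± 0.0261, SD, n = 2). Its relative LOXL2 had 14 and 78 tags, and at 91 tags in total it lay just below the level of 100. ADAMTS12 (gene ID 81792, chromosome 5), a protease that cleaves the cartilage protein COMP, had 634 and 2288 tags, or 0.635 and 0.656 per 1000 (0.645 ± 0.0149, SD, n = 2). LOX and ADAMTS12 were at ranks 158 and 156, and their replicate values overlapped, so that their order is not resolved. ADAMTS1, which cleaves the proteoglycans aggrecan and versican, had 174 and 706 tags. ADAMTS6 and ADAMTS9 had 23 tags each, ADAMTS16 had 10, and ADAMTS5, the main aggrecanase of cartilage, had 10 tags in all with no cluster of at least 10.

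All 7 laminin chains listed in the table had a cluster of at least 10 tags, and 3 had over 100 tags. LAMC1, the gamma 1 chain shared by most laminins, led with 242 tags in replicate 1 and 1000 in replicate 2. LAMB3, a beta chain of epithelial laminins, had 24 and 80 tags and at 104 in total was the gene just above the level of 100. LAMB1 had 84 tags in a single cluster in coding sequence, and LAMC3 had 28, LAMA5 13 and LAMB2 11. The 7 chains together held 0.349 tags per 1000 (± 0.0355, SD, n = 2), below the value of LOX alone. Of the microfibril genes, FBN1, fibrillin-1, had 58 and 178 tags, all in 3 3′UTR clusters, while LTBP1, a carrier of latent TGF-beta, had 8 tags in all.

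The matrix genes also differed in where their tags lay. In 9 of the 13 genes with over 100 tags the leading location was the 3′UTR, while it was the intron in 2, COL8A1 and ADAMTS12, and clusters with several labels in 2, THBS1 and LOX. Over all genes with over 100 tags the shares were 68%, 14.3% and 9.37%. Coding sequence led in none of the 13, against 6.86%. The 3′UTR held 81.1% of the tags of LAMC1, 84.8% of those of ADAMTS1 and 97.1% of those of THBS2. Summed over the 30 genes, 3′UTR clusters held 29.5% of the tags in replicate 1 and 30.9% in replicate 2 (30.2% ± 1.02, SD, n = 2), beside 47.1% ± 0.358 over all genes. Introns held 36.8% and 34.2% (35.5% ± 1.83, SD, n = 2), beside 18.9% ± 0.539 over all genes. This intron share, of clusters labelled intron alone, came almost wholly from COL8A1 and ADAMTS12, which held 99.5% of it. Without these genes, a split made after the values were seen, introns held 0.398% ± 0.00371 and clusters with several labels 56.6% ± 0.117. The latter share came mostly from THBS1 and LOX, in which such clusters held 74.3% of 7743 tags and 85.9% of 2874 tags.

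The order of the summed shares depended on the smallest cluster counted. With a minimum of 30 tags per cluster the 3′UTR held 38.6% and introns 17.3%, and with a minimum of 100 tags they held 45.7% and 0.557%. With replicate 2 left out the shares were 39.97% and 14.5%, and with COL8A1 left out they were 25.3% and 15.9%. Intron clusters of matrix genes were shallow, with a median of 16 tags over 549 clusters, beside 33 over 68 clusters in 3′UTRs. The corresponding medians over all genes were 14 and 22. Of the 26 matrix clusters with at least 100 tags, 13 were labelled 3′UTR, 7 had several labels, 5 were in coding sequence and 1 was in an intron. Of the 662 with 10 to 99 tags, 548 were in introns.

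**Figure D2:**
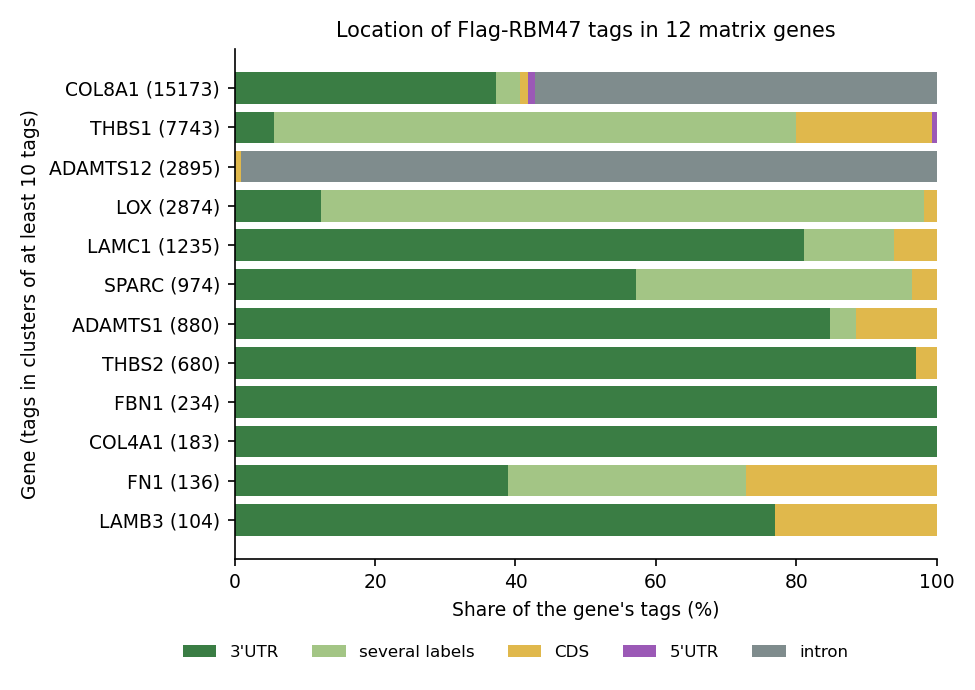
Share of each gene's tags (0 to 100%) by the authors' location label, for 12 of the 13 matrix genes with over 100 tags in clusters of at least 10, with the number of tags in parentheses. Introns fill 57.2% of the bar of COL8A1 and 99.03% of that of ADAMTS12, whereas most of the other bars are 3′UTR or, in THBS1 and LOX, clusters with several labels.

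The intron tags of COL8A1 and ADAMTS12 lay in many small clusters along the transcript. Over all listed clusters, COL8A1 had 599 intron clusters with 10208 tags, which ranked 8 of the 4177 genes with an intron cluster. ADAMTS12 had 479 with 4857 tags and ranked 22. No other matrix gene had more than 16 clusters labelled intron alone or 91 tags in them, the values of COL13A1. LOX had clusters of 1389 and 957 tags labelled both 3′UTR and intron, which are not counted here. In clusters of at least 10 tags, the intron tags of COL8A1 were 1.99 per 1000 in replicate 1 and 1.95 in replicate 2 (1.97 ± 0.0241, SD, n = 2). All listed intron clusters of COL8A1 spanned 155 kb with 38.6 clusters per 10 kb and covered 42.7% of that span. Those of ADAMTS12 spanned 325 kb with 14.7 per 10 kb and covered 13.7%. The deepest intron cluster had 102 tags in COL8A1 and 65 in ADAMTS12. The intron share of COL8A1 fell with the minimum of tags per cluster, from 61.1% over all its clusters to 57.2% at 10, 38.3% at 30 and 1.63% at 100.

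Intron tags were unevenly placed, and the 2 libraries placed them alike. The distribution over all listed intron clusters was examined in bins of 10 kb from the 5′-most listed cluster. This description was chosen after the first values were seen, and the last incomplete bin was left out. In COL8A1 the 15 bins held from 63 to 1504 tags with a median of 649. The highest bin began 30 kb from the start with 344 tags in replicate 1 and 1171 in replicate 2, and the lowest at 130 kb. The first 7 bins held 1035 tags on average and the last 8 held 369, a ratio of 2.80 that was 2.68 in replicate 1 and 2.85 in replicate 2. In ADAMTS12 the 33 bins held from 0 to 938 tags with a median of 75. Its highest bin began at 40 kb, with 212 and 745 tags. The first 16 bins held 238 tags on average against 61.3 in the last 17, a ratio of 3.89 that was 3.84 and 3.92 in the replicates. Both genes thus had more intron tags in the 5′ part of the listed region, with local peaks further on. Bins of 1 gene are not independent replicates, and no test was made of this difference.

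**Figure D3:**
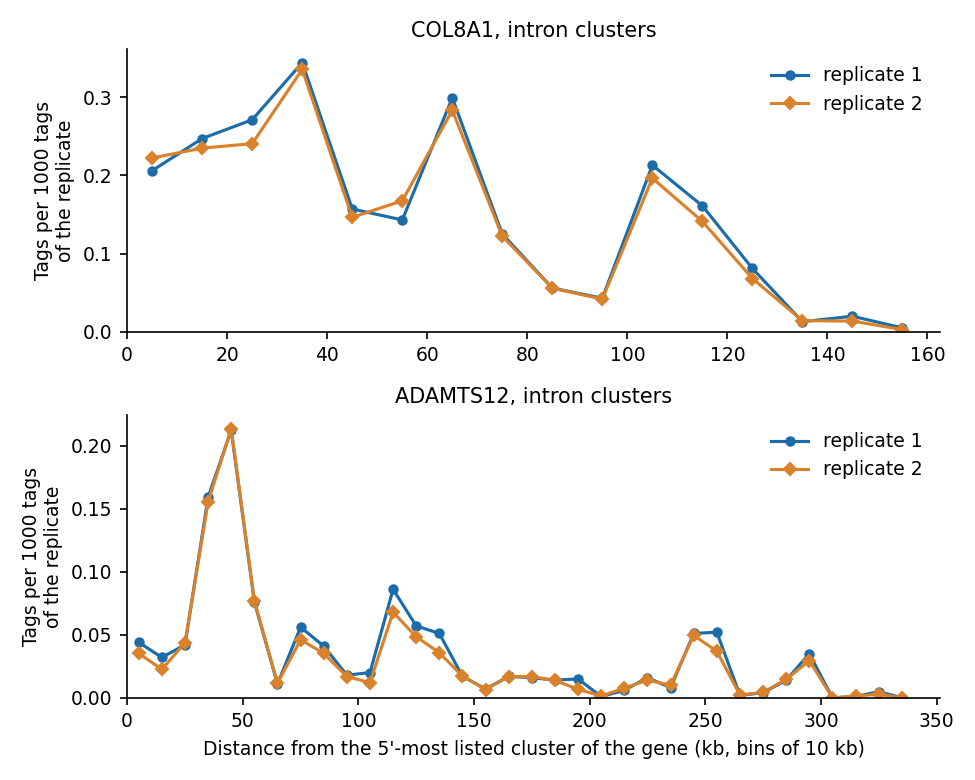
Intron tags per 1000 tags of the replicate in bins of 10 kb, against the distance in kb from the 5′-most listed cluster of COL8A1 (top) and ADAMTS12 (bottom), with circles for replicate 1 and diamonds for replicate 2. The highest bin begins at 30 kb in COL8A1 and at 40 kb in ADAMTS12 in both replicates, and the 2 lines lie close together throughout. All listed intron clusters are counted, and the last, incomplete bin is drawn too.

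A second feature of COL8A1 was 1 deep cluster at its 3′ end. The cluster at chr3:100997686-100998843 (+, hg18), labelled 3′UTR, had 5651 tags, 1119 in replicate 1 and 4532 in replicate 2, and ranked 12 of all 233546 clusters. It held 37.2% of the tags of the gene (Wilson 95% interval 36.5 to 38.0%, which covers counting error only). The share was 58.6% without replicate 2 and 54.3% with a minimum of 30 tags per cluster. It had 488 tags per 100 nucleotides, compared with at most 50.8 in the intron clusters of the gene with at least 30 tags. Over its 385 clusters of at least 10 tags, however, COL8A1 had 281 tags per kb of cluster. By that measure it was rank 802 of the 3074 genes with over 100 tags.

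The tags of THBS1 were the reverse of a dispersed pattern. One cluster that spanned the end of the coding sequence and the 3′UTR, at chr15:37674849-37676750 (+, hg18), had 1150 tags in replicate 1 and 4514 in replicate 2. Its total of 5664 ranked 11 of all clusters and was 73.1% of the tags of the gene (Wilson 95% interval 72.2 to 74.1%). A further 19 clusters in coding sequence held 19.4%, and no cluster was in an intron. THBS1 was 1 of 3 of the 13 genes with over 100 tags, with FBN1 and LAMB3, in which a single cluster held most of the tags, beside 8.72% of all genes with over 100 tags. LOX had 2 adjoining clusters labelled both 3′UTR and intron, at chr5:121428252-121429837 and chr5:121426864-121428251 (−, hg18), with 1389 and 957 tags. They adjoined a cluster of 352 tags labelled 3′UTR alone, at chr5:121429838-121430225. Edges between adjoining clusters depend on how tags were joined, and merging clusters closer than 50 nucleotides raised the median share of the largest cluster over the 15 genes with the most tags from 37.2% to 78.8%.

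Tags continued beyond the labelled end of some of these genes. This search was made after the first values were seen and took clusters on the same strand, within 10 kb downstream, that carried no gene ID. COL8A1 had 2 such clusters. The first began where the 3′UTR cluster ended, at chr3:100998843-100999026, and had 125 tags. The second, at chr3:100999075-101000766, had 1221 tags in replicate 1 and 4753 in replicate 2, 5974 in total, more than the labelled 3′UTR cluster. Both together had 6099 tags, or 1.32 per 1000 (± 0.101, SD, n = 2), equal to 40.2% of the tags assigned to the gene. From the start of the 3′UTR cluster to the end of the second cluster the distance was 3080 nucleotides. The annotated 3′UTR of COL8A1 in GENCODE release 44 is 597 nucleotides in the shortest transcript and 3090 in the longest. The next annotated gene on the same strand, CMSS1, begins 18.6 kb beyond the annotated end of COL8A1 in GRCh37. Positions were not carried between the builds and the gene that gave rise to these tags was not determined, so they are left out of the totals above. With them COL8A1 would have 21272 tags and rank 6.

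ADAMTS12 had no cluster labelled 3′UTR. It had 19 clusters without a gene ID downstream, the nearest 247 nucleotides away, over 3525 nucleotides and with 403 tags. Of these, 14 had at least 10 tags, with 80 in replicate 1 and 293 in replicate 2 (0.0820 ± 0.00275 per 1000, SD, n = 2). Its annotated 3′UTRs range from 7 to 3653 nucleotides. The next annotated gene on the strand, a long non-coding RNA, begins 1.305 kb beyond the annotated end of ADAMTS12 (GRCh37). The 247 nucleotides count from the last labelled cluster on hg18, so where the long non-coding RNA lies relative to these clusters was not determined. THBS1 had 6 such clusters with 67 tags and ADAMTS1 had 2 with 14. The other 26 matrix genes had none.

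**Figure D4:**
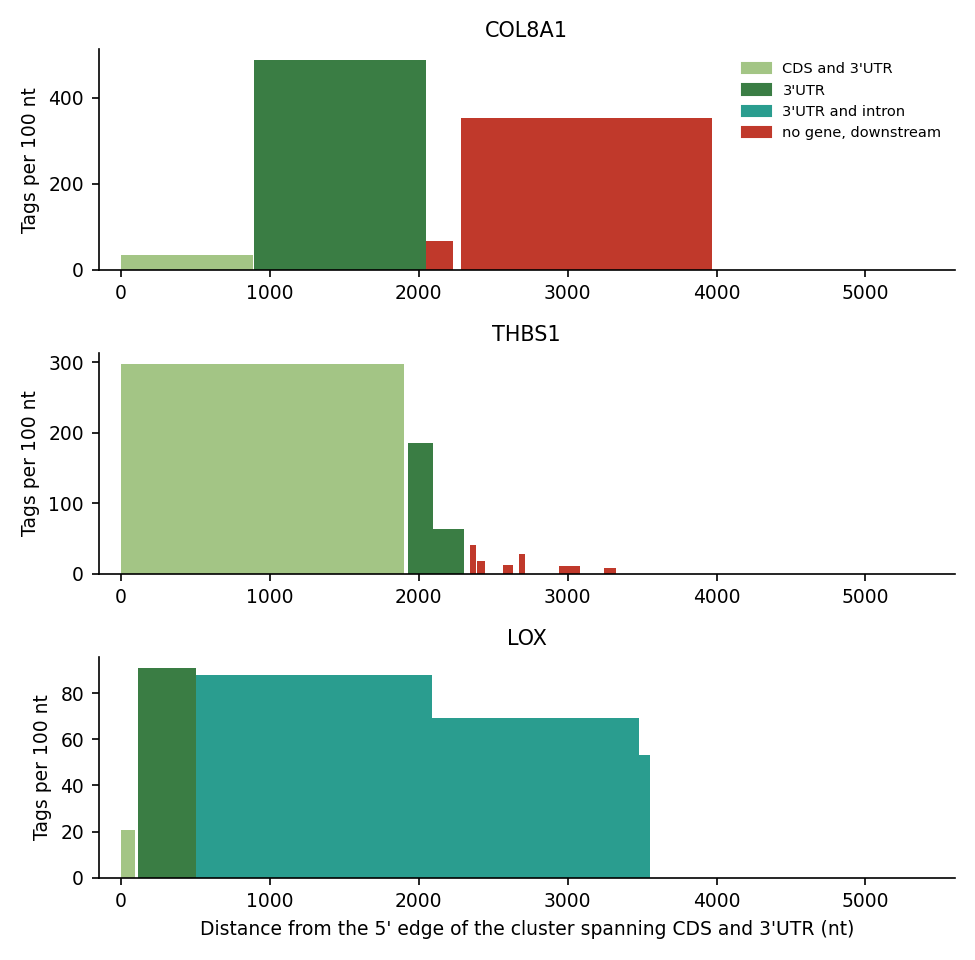
Tags per 100 nucleotides of each cluster, against the distance in nucleotides from the 5′ edge of the cluster that spans coding sequence and 3′UTR, in COL8A1, THBS1 and LOX, with colours for the authors' label and red for clusters without a gene ID. COL8A1 has a red cluster of 5974 tags next to the labelled 3′UTR cluster of 5651, THBS1 has small red clusters with 67 tags in all, and LOX has none.

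The replicates ordered the matrix genes alike. Whether COL8A1 and THBS1 departed from the general split between the replicates depended on how the libraries were scaled. Spearman's rho between the replicates over the 30 genes, with all listed clusters counted, was 0.977, beside 0.982 over all genes. This is a correlation across genes of very different totals, and genes are not independent replicates. Each listed cluster had at least 1 tag in each replicate, so part of this agreement was set by the selection of clusters. Each cluster and each gene, with all its listed clusters summed, was then tested for a split that departed from the rest of its library. The test was a two-sided exact binomial test with Benjamini-Hochberg adjustment over all clusters or all genes. Such a test compares these libraries and not conditions. No matrix cluster passed, against 0.0111% of all clusters, and 37 of 1358 (2.72%) had an unadjusted p below 0.05, against 3.04%. No matrix gene passed, against 1.52% of all genes, and 2 of 30 had an unadjusted p below 0.05, against 10.5%. The smallest adjusted values were 0.0626 for the 3′UTR cluster of COL8A1 and 0.0652 for ADAMTS12 by the exact test.

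The shares were also compared between locations, over all listed clusters. Replicate 1 gave 22.0% of all gene tags. It gave 19.8% of the tags of the 3′UTR cluster of COL8A1 (Wilson 95% interval 18.8 to 20.9%) but 23.0% of the intron tags of the same gene (22.2 to 23.8%). Summed over all genes the shares were 21.1% in 3′UTRs and 24.1% in introns. The share was 24.0% in ADAMTS12, whose tags are in introns, and 20.6% in THBS1, whose tags are not. Single genes did not all follow this order. THBS2, FBN1 and LAMB3, with tags mostly or wholly in 3′UTRs, had shares of 23.8%, 24.9% and 24.3%, with Wilson intervals that included 22.0%. The replicate 1 share also varied with cluster depth. It was 22.3% over all clusters and 20.8% in clusters of at least 30 tags. Each listed cluster needed at least 1 tag in each replicate, and intron clusters were shallower than 3′UTR clusters. Location and depth were therefore not separated in these shares. With the libraries scaled to the median ratio over genes in place of the total, the test called COL8A1 (adjusted p = 0.0176) and THBS1 (adjusted p = 0.000103, exact binomial test) and 193 genes in all. With clusters of at least 10 tags in place of all clusters it called no matrix gene, with a smallest adjusted p of 0.850 by the exact test. For clusters, median-ratio scaling raised the smallest adjusted p of the exact test from 0.0626 to 0.801.

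**Figure D5:**
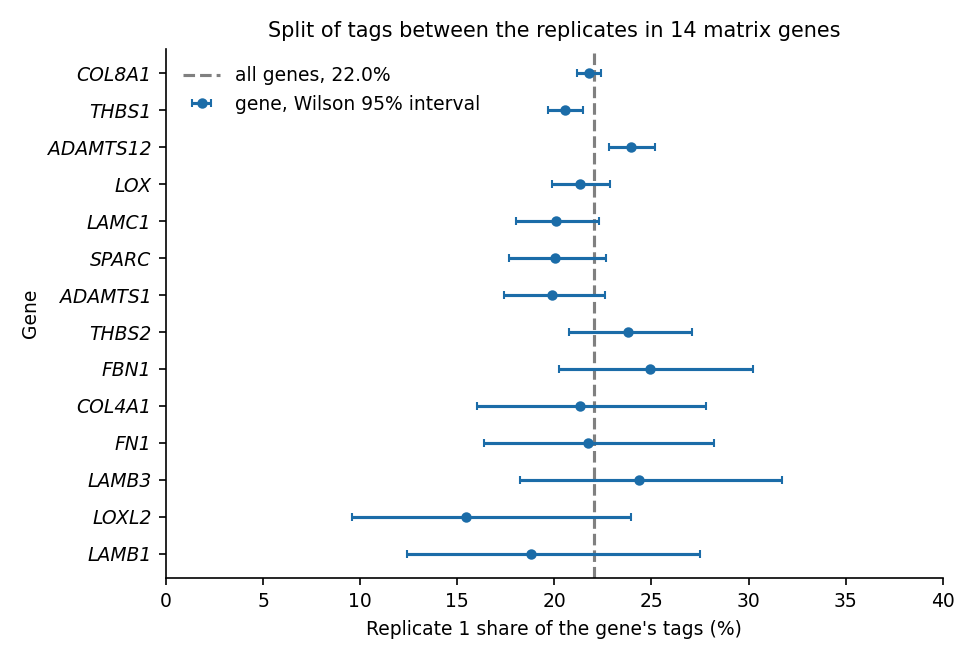
Share of the gene's tags that came from replicate 1 (percent, with Wilson 95% intervals) for 14 of the 15 matrix genes with the most tags, and a dashed line at 22.0%, the share over all genes. THBS1 lies below the line at 20.6% and ADAMTS12 above it at 24.0%, and neither passed the test against that share after adjustment. All listed clusters are counted.

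Other genes that build or remodel the matrix were taken from 3 lists. The first held 23 genes for enzymes and carriers that modify and export collagen. Of these, 13 had any listed cluster and 8 had over 100 tags. PLOD2, a lysyl hydroxylase that prepares collagen for crosslinking, led with 344 tags in replicate 1 and 1264 in replicate 2 (0.353 ± 0.0126 per 1000, SD, n = 2). It was followed by SEC23A with 487 tags, SEC24D with 484 and MIA3 with 426, which encode parts of the secretory coat and the receptor that load procollagen. PLOD2 was above LAMC1 and the other 3 were below THBS2.

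In the second list, 28 genes for proteases and their inhibitors, 15 had any listed cluster and 11 had over 100 tags. TIMP3, an inhibitor that stays bound to the matrix, had 1920 and 7605 tags (2.05 ± 0.182 per 1000, SD, n = 2), more than THBS1. The collagenase MMP1 had 4262 tags, and TIMP2, a soluble inhibitor of the same family as TIMP3, had 3529. In the third list, 45 genes for other glycoproteins and proteoglycans, 11 had any listed cluster and 7 had over 100 tags. CTGF, a matricellular growth regulator, had 10429 tags (2.23 ± 0.233 per 1000, SD, n = 2), between the totals of THBS1 and COL8A1. Its relatives CYR61 and NOV had 4064 and 703 tags and the cell surface proteoglycan SDC4 had 1512. Each of these lists was read beside the 39.9% of all genes with over 100 tags, a share of genes with any listed cluster. The lists were not tested against it. No such reference was computed for the number of genes in a list with any listed cluster.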

How the data were processed

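Both libraries were made from MDA231-BrM2a cells with induced Flag-RBM47. The authors deposited a table of clusters with the count of tags in each replicate, a total, a location label and a gene. Alignment with Novoalign and the build hg18 are given in the submitters' processing notes. Whether coordinates count from 0 or 1 is not given in the sources used here, and they are printed as deposited. The counts are whole and not normalized. The total was used for gene sums and the replicate columns for all values per replicate. In 16.1% of matrix clusters the replicates summed to more than the total, by 300 tags in all.

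Gene sums used clusters of at least 10 tags. Values per 1000 tags were scaled to the sum of all listed clusters of a replicate. Splits were tested with exact binomial tests and Benjamini-Hochberg adjustment at 0.05, with a beta-binomial test as an alternative. The code was tested on simulated data. Full values were given for the 15 matrix genes with the most tags, and other lists were named by their 4 genes with the most tags. Of the items so selected, 2 genes and 1 sequence window are not reported here. The genes and lists were chosen with earlier results of these data known, and role groups were filled in after the table was read. Bins along introns, clusters downstream, runs of T and the values without both COL8A1 and ADAMTS12 were also chosen after values were seen. No column of another sample was left out. Python 3.11.15, pandas 2.3.3, NumPy 2.4.6, SciPy 1.17.1 and matplotlib 3.10.9 were used.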

Additional observations from a re-analysis of the deposited data

How the results depend on the processing

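With 2 replicates each SD has little precision, and replicate 1 had a median of 2 tags per matrix cluster, so that splits of single clusters could be detected only in deep ones. No paired analysis was possible because both replicates belong to the only group. Of 63 alternative values for the main results, 24 stayed within a limit and 39 moved beyond it. The limit was the replicate spread, also for the rank of COL8A1 and the median share of the largest cluster. For counts and the median tags per gene it was 1.5 times, which was chosen for the median after the data were seen. Of 72 alternative values for single genes, 27 stayed and 45 moved. The matrix genes with over 100 tags (13) numbered 24 with the limit set on tags per kb, which every gene with a cluster of at least 10 tags passed, so that this setting does not bear on the count, and 7 to 10 when only 1 replicate was used. The median tags over the 24 genes with a cluster of at least 10 tags was 120. It was 401 over the genes left with a minimum of 30 tags per cluster, and 88 to 154.5 with 1 replicate. The pooled share of gene tags in the matrix genes (1.16%) was 1.07% over all clusters and 1.22% with at least 30 tags. It was 1.32% with at least 100, 0.637% without COL8A1 and 1.18% to 1.26% with 1 replicate. The pooled 3′UTR share (30.7%) was 27.5% over all clusters, 38.6% with at least 30 tags, 45.7% with at least 100, 57.3% with every label that included 3′UTR, 9.88% counting clusters, 25.3% without COL8A1 and 31.9% to 39.97% with 1 replicate. The pooled intron share (34.5%) was, in the same order, 40.7%, 17.3%, 0.557%, 41.6% (every label that included intron), 79.8%, 15.9% and 14.5% to 31.9%, and 0.398% without COL8A1 and ADAMTS12, a setting added after the data were seen. Without replicate 2, COL8A1 fell to rank 17 and the intron share to 14.5%, below the 3′UTR share of 39.97%; fewer clusters of replicate 1 alone reach 10 tags. COL8A1 per 1000 tags (3.36) was 3.73 over all clusters, 2.27 with at least 30 tags, 4.24 scaled to gene tags, 4.68 with the downstream clusters (added later) and 1.91 to 3.29 with 1 replicate. Its rank (10) was 15 with at least 30 tags and 10 to 17 with 1 replicate. By tags per kb, among genes with over 100 tags only, it was 802. The median share of the largest cluster (37.2%) was 73.6% with at least 30 tags, 78.8% with merged clusters and 43.97% to 51.9% with 1 replicate. The matrix genes called for their split (0) numbered 2 with median-ratio scaling and 0 by the beta-binomial test. For moved values whose cause is not named here, the cause was not tested.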
